A study of Mus musculus with 4 samples.

Results

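Interferon-stimulated genes are the genes that cells switch on when interferons, the antiviral cytokines, reach them. A fixed list of 39 such mouse genes was followed in RNA-seq counts from the lumbar spinal cord (L4-6). The genes were matched by Entrez identifier to RefSeq symbols among 27179 identifiers in all. Each of the 39 had at least 10 counts in 2 or more libraries, so all were described, and all passed the abundance filter of the test. The series compared male C57BL/6J mice with a cuff around the sciatic nerve, a constriction model of lasting neuropathic pain, with mice given a sham operation, 28 days after surgery. There were 4 poly(A) libraries, 2 titled cuff and 2 titled sham, with no other treatment or allele named. Nothing in the labels ties each library to an animal of its own, so a p-value here reflects library spread that may be technical.

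Titles and file names contradict each other: each of the 4 libraries carries one condition in its title and the other in its file name. Groups follow the titles here, so all signs below are reversed should the file names hold. Counts summed to between 32936609 and 39461573 per library. Abundant genes of neurons and oligodendrocytes marked the tissue as cord: the summed level of 6 neuronal markers lay between 3842 and 4453 CPM (counts scaled to a common library total) and that of 6 oligodendrocyte markers between 25201 and 32050 CPM. The second library titled cuff stood apart, with 213 counts of the sensory ganglion channel gene Scn10a against 0 in the other 3 libraries, and skeletal muscle markers that summed to 591 CPM there against 78.7 to 169 CPM in the others. The median of the members and the fold changes of several of them are also given without it.

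Type I interferons act through a receptor pair, Ifnar1 and Ifnar2, whose kinases signal to the complex ISGF3. This complex, which holds Stat2 and Irf9, binds the interferon-stimulated response element in target promoters. Interferon gamma acts through another receptor and another promoter element, the gamma-activated site. In the central nervous system microglia, astrocytes and vessel cells respond to interferons, and a low tonic level of the targets is present without infection.

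The letters of these elements were searched in RefSeq promoter windows of build GRCm38.p6. Each ran from 250 bases before to 50 bases after a start site given for the gene. Windows were found for 30 of the 39 genes. The core of the interferon-stimulated response element, GAAA, any 2 bases and GAAA again, on either strand, was present for 18 of these 30 genes (60%), against 3.99% of all 27025 genes in the table. The core TTCNNNGAA, the gamma-activated site, which reads the same on both strands, was present for 11 of 30 (36.7%) against 9.55% of all genes. Hits may overlap each other. Oas2, Mx1, Mx2, Usp18, Dhx58, Zbp1, Ifi27, Rtp4 and Parp14 had no entry.

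The stretches below show these letters at genes whose levels are described further on. Each lies before the start site of its window except that of Eif2ak2, which lies just after it. For Ifit3, Ifit3b and Ifitm2 that site and the stretch lie inside the RefSeq bounds of the gene. They are written 5′ to 3′ on the strand of the gene, in build GRCm38.p6 (mm10), with the motif letters in capitals (TTTC on the other strand of GAAA). The first 4 and that of Bst2 hold 2 or 3 matches to the response element core, which overlap in Isg15 and Bst2. The stretch of Ifit3 is letter for letter that of Ifit3b.
Isg15 (chr4:156200855-156200916, minus strand): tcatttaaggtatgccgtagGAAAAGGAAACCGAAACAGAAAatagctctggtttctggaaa
Ifit1 (chr19:34640765-34640833, plus strand): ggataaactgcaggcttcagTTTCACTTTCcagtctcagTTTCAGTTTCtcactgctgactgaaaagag
Ifit3 (chr19:34583353-34583436, plus strand): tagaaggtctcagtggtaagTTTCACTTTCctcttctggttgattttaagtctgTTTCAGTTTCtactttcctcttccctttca
Ifit3b (chr19:34607749-34607832, plus strand): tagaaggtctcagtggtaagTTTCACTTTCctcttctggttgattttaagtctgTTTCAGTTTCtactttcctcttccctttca
Stat2 (chr10:128270256-128270305, plus strand): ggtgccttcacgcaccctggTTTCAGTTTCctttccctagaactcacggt
Ifitm2 (chr7:140955978-140956027, minus strand): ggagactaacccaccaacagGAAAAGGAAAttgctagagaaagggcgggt
Gbp7 (chr3:142530263-142530312, plus strand): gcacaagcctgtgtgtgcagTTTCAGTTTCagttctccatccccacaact
Eif2ak2 (chr17:78882535-78882564, minus strand): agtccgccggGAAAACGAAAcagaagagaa
Bst2 (chr8:71537567-71537622, minus strand): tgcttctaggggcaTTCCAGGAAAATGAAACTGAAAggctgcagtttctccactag

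A further pair, the transcription factor genes Irf1 and Irf8, held the gamma-activated letters and no response element core.
Irf1 (chr11:53769904-53769952, plus strand): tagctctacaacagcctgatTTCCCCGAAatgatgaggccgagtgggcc
Irf8 (chr8:120736167-120736233, plus strand): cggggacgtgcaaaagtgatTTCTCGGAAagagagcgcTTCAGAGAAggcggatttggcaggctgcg
The directions of the genes with and without the response element core are given as a description, with no test. Of the 18 genes with the response element core, 9 had a positive and 9 a negative log2 fold change (titled cuff minus titled sham), with a median of -0.011. Of the 12 genes with a window but without this core, 11 were positive and 1 negative, with a median of 0.37. Ifit2, Irf1, Irf8, Psmb8 and Ifi35 among them held the gamma-activated letters. Of the 9 genes with no window, 7 were positive and 2 negative, with a median of 0.30.

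The comparison of cuff with sham asked which genes differ in the cord during lasting nerve injury pain. None of the 39 interferon-stimulated genes rose or fell by the test used, edgeR's quasi-likelihood test with Benjamini-Hochberg adjustment over 16918 genes at an adjusted p of 0.05. The same test called 4.11% of all genes tested, 1.15% higher and 2.96% lower. The members were less abundant, with a median of 4.15 CPM, against 18.4 CPM over all genes tested. At an unadjusted p under 0.05 there were 5 members, Eif2ak2, Stat2, Gbp7, Irf7 and Ifitm2, where 21.5% of all genes passed. Eif2ak2 and Gbp7 were lower and the other 3 higher, where 11.7% of all genes were lower and 9.74% higher at that p. DESeq2, limma-voom and edgeR's likelihood ratio test also called 0 of the 39, with no adjusted p from DESeq2 for 5 of them. The 95% interval of the log2 fold change, not adjusted for the number of genes, lay within -1 and 1 for 21 members. For the other 18 the interval reached past a 2-fold difference in at least 1 direction.

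**Figure D1:**
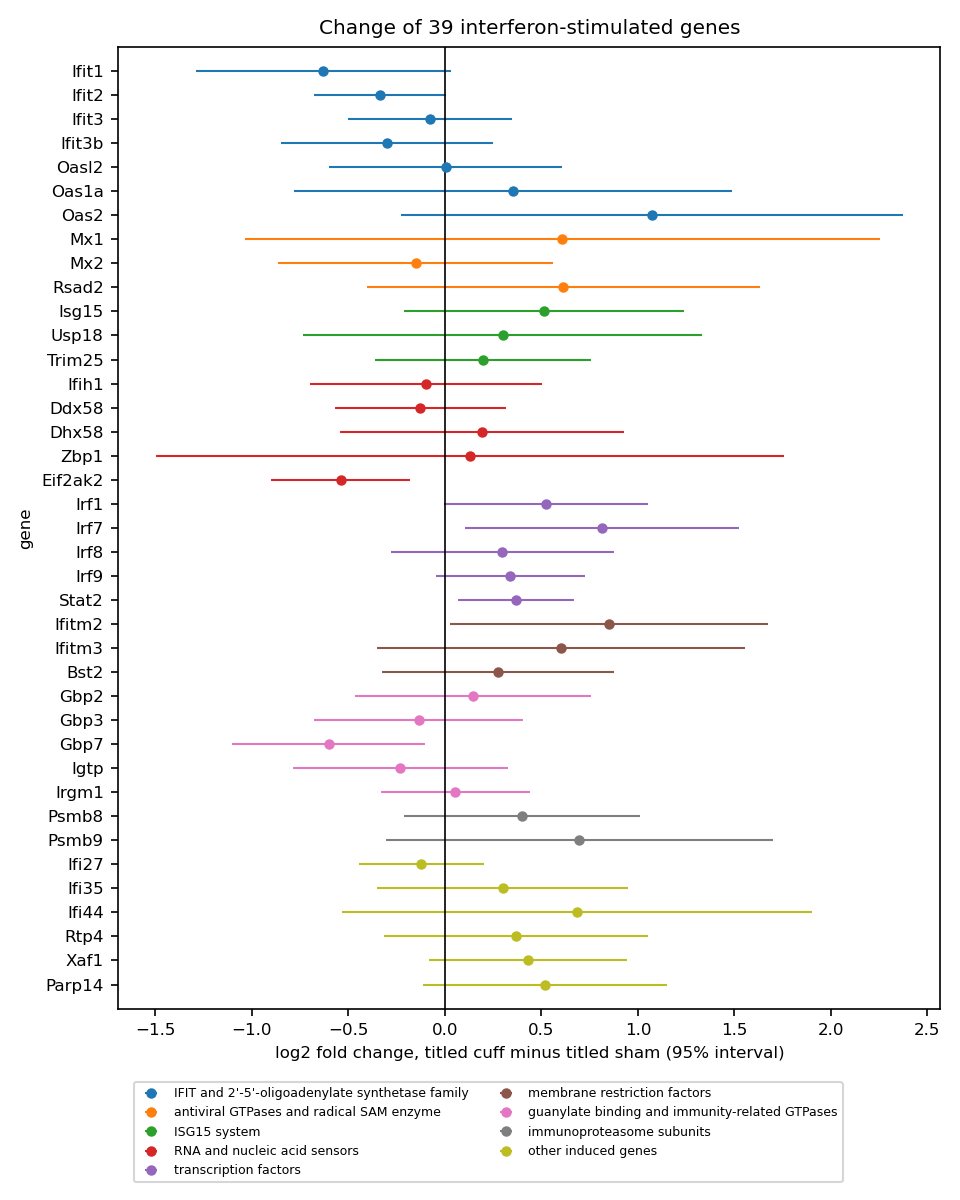
Log2 fold change of each of the 39 genes (x axis, titled cuff minus titled sham), with points for the estimate, bars for its 95% interval and colours for the role of the gene. Intervals of 5 genes leave out 0 before adjustment, those of Eif2ak2 and Gbp7 below it and those of Irf7, Stat2 and Ifitm2 above it, and none passed after adjustment.

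In fold change, 27 members were positive and 12 negative. Their median log2 fold change was 0.30, beside 0.02 over all genes tested, of which 52.1% were positive. The CPM values of the groups did not overlap in 19 members, as in 54.1% of all genes. Both libraries titled cuff were above both titled sham in 15 members, where 28.2% of all genes were, and below them in 4 members (Ifit1, Ifit2, Eif2ak2 and Gbp7), where 25.9% of all genes were. Without the second library titled cuff the median was -0.023, with 18 members positive and 21 negative. Without the first, 3 members passed, namely Rsad2, Ifitm2 and Ifitm3, all higher, from 1 library against 2, in a fit that called 11.1% of all genes.

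The second library titled cuff held the highest CPM of the 4 in 22 of the 39 members (56.4%), against 34.5% of all genes tested. The first library titled sham held the lowest in 20 members (51.3%), against 30.1% of all genes. The mean of the 39 genes, in log2(CPM + 0.1) after the average of every gene was taken off, was -0.06 and 0.24 in the libraries titled cuff and -0.18 and -0.002 in those titled sham. The first library titled cuff was thus below the second titled sham. In bulk tissue, fewer cells of a type and less RNA per cell cannot be told apart.

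**Figure D2:**
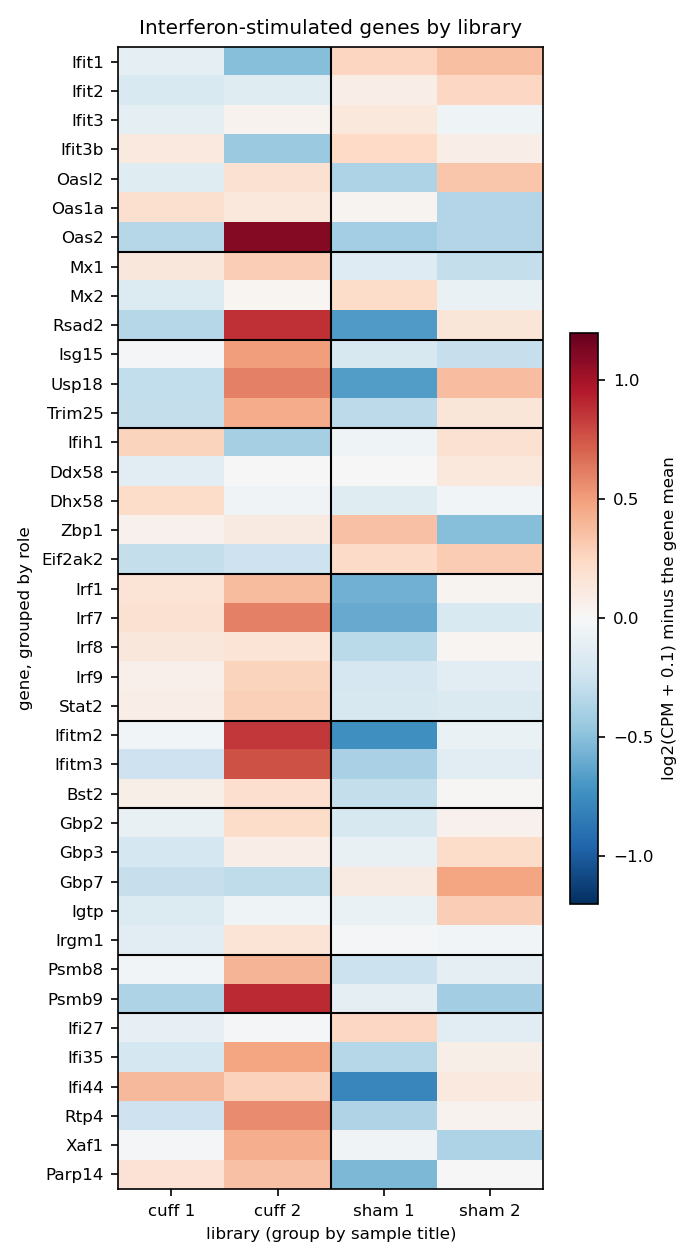
Level of the 39 genes (rows, grouped by role between black lines) in the 4 libraries (columns), as log2(CPM + 0.1) minus that gene's average. The second library titled cuff is the highest of the 4 in 22 genes and the first titled sham the lowest in 20.

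Compared per length, as CPM per kilobase of the longest GENCODE M21 transcript averaged over the 4 libraries, the levels of the 39 genes spanned 394-fold. Ifi27, a small interferon-induced membrane protein gene, was highest at 28.8 CPM per kilobase. Ifitm3 followed at 21.9 and Ifitm2 at 14.9, and then Stat2 at 6.22 and Ifit3 at 4.80 CPM per kilobase. The lowest were Mx1 at 0.0731, Zbp1 at 0.0821, Ifi44 at 0.159 and Oas2 at 0.169 CPM per kilobase. The ranges over the 4 libraries overlapped between neighbours in 36 of the 38 steps of this order. They were separate between Ifitm2 and Stat2 and between Stat2 and Ifit3. In raw counts the members ranged from 6 to 1272 per library, and they made up between 0.0218% and 0.0291% of all counts.

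Interferons themselves were at the limit of detection. Of 9 ligand genes, 6 had no count in any library (Ifna1, Ifna4, Ifnb1, Ifne, Ifnl2 and Ifnl3). Ifng had 2 counts in the first library titled cuff and 0 elsewhere, and Ifna2 and Ifnk had 2 counts each in the second titled sham and 0 elsewhere. None of the 9 could be tested at this depth. The 9 genes of interferon receptors and their kinases were all tested, and 0 were called (median log2 fold change 0.11). The most abundant were the kinase genes Jak1, at 222 and 192 CPM in the libraries titled cuff and 234 and 255 CPM in those titled sham (-0.24 ± 0.13 SE, adjusted p = 0.307), and Jak2 (-0.15 ± 0.14, adjusted p = 0.593). The 2 groups overlapped for Jak2 and not for Jak1.

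Among 9 genes of signal transducers and inhibitors, 1 fell and none rose (median 0.07). Pias1, which encodes a SUMO ligase that restrains interferon signalling, was at 37.0 and 30.1 CPM in the libraries titled cuff and at 50.9 and 52.3 CPM in those titled sham. Its log2 fold change was -0.62 ± 0.14 (SE, edgeR adjusted p = 0.0229). The call was lost with limma-voom (adjusted p = 0.062), with a correction for transcript length and GC content (-0.34, adjusted p = 0.141) and without the second library titled cuff, the first titled sham or the second titled sham (adjusted p = 0.383, 0.254 and 0.168). The log2 fold changes in these 3 fits, each with 1 library fewer, were -0.48, -0.65 and -0.61. Over the 14 alternatives its adjusted p ran from 0.00121 to 0.383. Stat3 was the most abundant of the list (0.07 ± 0.13, adjusted p = 0.798).

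Of 13 tested genes of pattern recognition upstream of interferon, 0 were called (median 0.04). For Traf3, an adaptor, the difference was -0.16 ± 0.13 on the log2 scale (adjusted p = 0.524), and for the kinase gene Tbk1 it was -0.10 ± 0.13 (adjusted p = 0.722). A second list of 46 interferon-stimulated genes outside the 39 had 42 members that could be tested, and 0 were called. Its median log2 fold change was 0.18, with 27 positive and 15 negative. Its most abundant genes were Adar, an RNA-editing deaminase with a constitutive form as well (0.011 ± 0.14, adjusted p = 0.977), and Ly6e, a surface protein gene (0.24 ± 0.13, adjusted p = 0.31).

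Transcription factors of the response all had positive log2 fold changes, as did the members of the ISG15 system, the membrane restriction factors and the immunoproteasome subunits. All 5 factors had both libraries titled cuff above both titled sham, as had 28.2% of all genes tested, and none passed the test (median log2 fold change 0.37). Stat2, a subunit of ISGF3, was at 28.6 and 33.0 CPM in the libraries titled cuff and at 23.8 and 24.0 CPM in those titled sham, with the groups apart and the titled sham pair nearly equal. Its log2 fold change was 0.37 ± 0.14 (SE, adjusted p = 0.145), with a 95% interval from 0.07 to 0.67. Irf9, which gives ISGF3 its DNA contact, was at 11.3 and 13.1 CPM against 9.39 and 9.90 CPM (0.34 ± 0.18, adjusted p = 0.296).

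Irf7, which amplifies type I interferon production, was the member of this group with the largest fold. It was at 2.86 and 3.87 CPM in the libraries titled cuff and at 1.62 and 2.20 CPM in those titled sham (0.81 ± 0.34, adjusted p = 0.171). Irf1, a factor induced above all by interferon gamma, was at 6.77 and 7.82 CPM against 4.001 and 6.14 CPM (0.52 ± 0.25, adjusted p = 0.236). The microglial factor gene Irf8 was at 4.52 and 4.63 CPM against 3.27 and 4.17 CPM (0.30 ± 0.27, adjusted p = 0.567). The 5 log2 fold changes stayed positive in each of the 14 alternatives. Transcripts of these 5 genes had a GC content between 50.4% and 55.4%, and with length and GC corrected the fold changes lay between 0.18 for Irf8 and 0.55 for Irf7.

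RNA and nucleic acid sensors held the member nearest to the threshold. Eif2ak2 encodes PKR, the kinase that halts translation when it binds double-stranded RNA. It was at 9.98 and 10.2 CPM in the libraries titled cuff and at 14.3 and 15.1 CPM in those titled sham, so that the groups were apart by far more than the libraries within them. The log2 fold change was -0.54 ± 0.17 (SE, 95% interval -0.90 to -0.18, adjusted p = 0.0812). Over the 14 alternatives it ran from -0.60 to -0.38, with adjusted p from 0.0555 to 0.474, and it passed in none. With length and GC corrected it was -0.38 (adjusted p = 0.22).

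The other sensors had log2 fold changes between -0.13 and 0.19. Ddx58, which encodes the RNA helicase RIG-I, was at 6.82 and 7.47 CPM against 7.45 and 8.16 CPM (-0.13 ± 0.21, adjusted p = 0.776), and the groups overlapped. Ifih1, which encodes the helicase MDA5, was at -0.10 and Dhx58, the regulator LGP2, at 0.19, and the sign of both turned with length and GC corrected, to 0.16 and -0.02. Zbp1, a sensor of Z-form nucleic acid that starts necroptosis, had 10, 10, 14 and 6 counts in the order first and second cuff, first and second sham, too few for more than a broad interval (-1.50 to 1.75).

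Some of the IFIT proteins bind viral RNA caps and block translation, and the oligoadenylate synthetases activate the nuclease RNase L. The genes of these families did not lie on the same side. All 4 IFIT genes had negative log2 fold changes. Ifit2 was at 13.4 and 13.8 CPM in the libraries titled cuff and at 16.2 and 18.2 CPM in those titled sham (-0.33 ± 0.16, adjusted p = 0.241), with no overlap. Ifit1 was at 2.66 and 1.99 CPM against 3.48 and 3.73 CPM (-0.63 ± 0.31, adjusted p = 0.252), also with no overlap. The groups overlapped for Ifit3, at 7.71 and 8.61 CPM against 9.13 and 8.08 CPM (-0.08 ± 0.20, adjusted p = 0.869), and for Ifit3b (-0.30, adjusted p = 0.538). These 2 genes are close copies: 41.1% of all 75-base stretches of the longest Ifit3 transcript occur letter for letter in an Ifit3b transcript, so their counts are uncertain.

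Among the synthetase genes, Oas2 had the largest log2 fold change of the 39 members, 1.07 ± 0.62 (adjusted p = 0.328). It rested on 47 counts in the second library titled cuff, against 16 in the first and 16 and 17 in those titled sham, and was 0.045 without that library. Oas1a was at 0.35 and shared 47.6% of its stretches with Oas1g, which makes its counts uncertain. Oasl2, which encodes a synthetase-like protein, was at 0.0054, with the groups overlapping, and turned to -0.011 with median-ratio scaling.

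**Figure D3:**
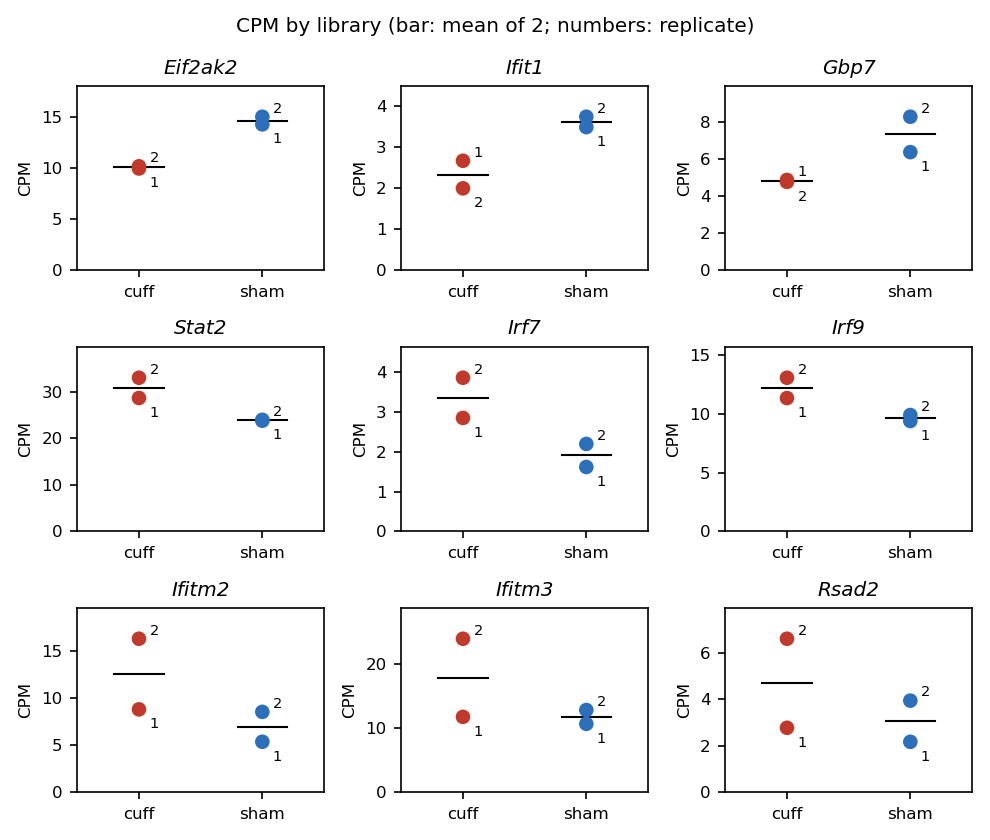
CPM of 9 of the genes by library (y axis from 0; red, titled cuff; blue, titled sham; bars, mean of 2 libraries; small numbers, replicate). Groups are apart for Eif2ak2, Ifit1 and Gbp7 (cuff below sham) and for Stat2, Irf7, Irf9 and Ifitm2 (cuff above sham), and overlap for Ifitm3 and Rsad2, where the second library titled cuff is high.

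The membrane restriction factors bar virus entry or release. Ifitm2 and Ifitm3 encode small proteins of endosomal membranes that block fusion of virus and host membranes. Ifitm2 was at 8.79 and 16.3 CPM in the libraries titled cuff and at 5.36 and 8.52 CPM in those titled sham, with the first cuff library barely above the second sham library. Its log2 fold change was 0.85 ± 0.35 (SE, adjusted p = 0.222). It was 1.18 without the first library titled cuff (adjusted p = 0.000119) and 0.34 without the second (adjusted p = 0.866), the lowest and the highest adjusted p of the 14 alternatives. Of its 75-base stretches 42.0% occur in transcripts of other genes, such as Gm45717, so its counts are uncertain. Ifitm3 was at 11.8 and 24.0 CPM against 10.7 and 12.8 CPM (0.60 ± 0.37, adjusted p = 0.424), with overlap, and at -0.00025 without the second library titled cuff. Bst2, tetherin, which holds budding virus at the cell surface, was at 3.88 and 4.28 CPM against 3.01 and 3.73 CPM (0.28 ± 0.29, adjusted p = 0.618).

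Isg15 encodes a ubiquitin-like protein that is attached to other proteins. It was at 2.27 and 3.31 CPM in the libraries titled cuff and at 2.01 and 1.89 CPM in those titled sham (0.51 ± 0.35, adjusted p = 0.412), with no overlap, and its log2 fold change was 0.22 without the second library titled cuff. Trim25, a ubiquitin ligase that activates RIG-I, was at 6.16 and 10.3 CPM against 6.01 and 8.32 CPM (0.20 ± 0.26, adjusted p = 0.712). Usp18, which removes Isg15 and damps the receptor, was at 0.30 in log2 fold change (adjusted p = 0.774). In both genes the groups overlapped and the second library of each group was the higher one. Without the second library titled cuff Trim25 was at -0.22 and Usp18 at -0.26.

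Rsad2 encodes viperin, an enzyme that makes a chain-ending nucleotide. It was at 2.77 and 6.59 CPM in the libraries titled cuff and at 2.17 and 3.94 CPM in those titled sham (0.61 ± 0.45, adjusted p = 0.476). The groups overlapped, and the log2 fold change was 1.06 without the first library titled cuff (adjusted p = 0.0173) and -0.14 without the second, with adjusted p up to 0.972 over the 14 alternatives. Mx2, a dynamin-like GTPase gene, was at 2.08 and 2.37 CPM against 2.75 and 2.20 CPM (-0.15 ± 0.34, adjusted p = 0.84). Its relative Mx1, which carries a deletion in C57BL/6 mice, had 10 and 11 counts against 8 and 7 (0.61, 95% interval -1.04 to 2.26).

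Guanylate-binding proteins and immunity-related GTPases, induced above all by interferon gamma, attack the vacuoles of microbes. Irgm1, a regulator of the latter family, was at 10.3 and 12.6 CPM in the libraries titled cuff and at 11.09 and 10.96 CPM in those titled sham (0.05 ± 0.18, adjusted p = 0.902), with a 95% interval from -0.33 to 0.44. Gbp7 was at 4.88 and 4.78 CPM against 6.38 and 8.29 CPM (-0.60 ± 0.24, adjusted p = 0.15), with the groups apart. Its transcript had the lowest GC content of this group (41.7%), and with length and GC corrected the fold change was -0.30 (adjusted p = 0.508, from 0.138 to 0.646 over the 14 alternatives). Of its stretches 11.4% occur in other genes, so its counts are uncertain. Gbp2, Gbp3 and Igtp overlapped between the groups, with log2 fold changes of 0.15, -0.14 and -0.23. Igtp shared 8.37% of its stretches with Irgm2.

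Psmb8 and Psmb9 encode inducible subunits that turn the proteasome into the immunoproteasome, which prepares peptides for antigen presentation. Psmb8 was at 3.60 and 4.95 CPM in the libraries titled cuff and at 3.09 and 3.39 CPM in those titled sham (0.40 ± 0.29, adjusted p = 0.453), with no overlap, and its log2 fold change was 0.15 without the second library titled cuff. Psmb9 was at 0.943 and 2.40 CPM against 1.15 and 0.907 CPM (0.70 ± 0.48, adjusted p = 0.42), overlapped, and was at -0.13 without the second library titled cuff.

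Of the remaining 6 induced genes 5 had positive and 1 had a negative log2 fold change. Ifi27, the most abundant member, was at 26.1 and 27.7 CPM in the libraries titled cuff and at 33.3 and 25.4 CPM in those titled sham, where the first sham library was above the rest and the second below (-0.12 ± 0.15, adjusted p = 0.691). Xaf1, which antagonises the apoptosis inhibitor XIAP, was at 6.10 and 8.47 CPM against 6.01 and 4.79 CPM (0.43 ± 0.24, adjusted p = 0.324), with the groups just apart, and its log2 fold change was 0.17 without the second library titled cuff. Parp14, a mono-ADP-ribosyltransferase gene, was at 3.99 and 4.54 CPM against 2.41 and 3.55 CPM (0.52 ± 0.30, adjusted p = 0.333). Its fold change grew to 0.79 with length and GC corrected, and its adjusted p ran from 0.0964 to 0.854 over the 14 alternatives. Ifi44 (0.69), Rtp4 (0.37) and Ifi35 (0.30) had adjusted p between 0.522 and 0.617, and of these only Ifi44 did not overlap between the groups.

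Transcript composition moved with these values. Across the 39 genes the log2 fold change correlated with the GC content of the longest transcript at Pearson r = 0.50, as a description over genes measured in the same 4 libraries, and across 16360 tested genes with a length it did so at 0.35. After each library was corrected for length and GC the value over the 39 genes was 0.15. The correction takes a fitted trend with length and GC out of each library, so a lower value is in part built in. In that fit 0 members passed, the median was 0.16 beside -0.04 for all genes, and 26 members were positive and 13 negative. The part of GC content in the single values was not tested.

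**Figure D4:**
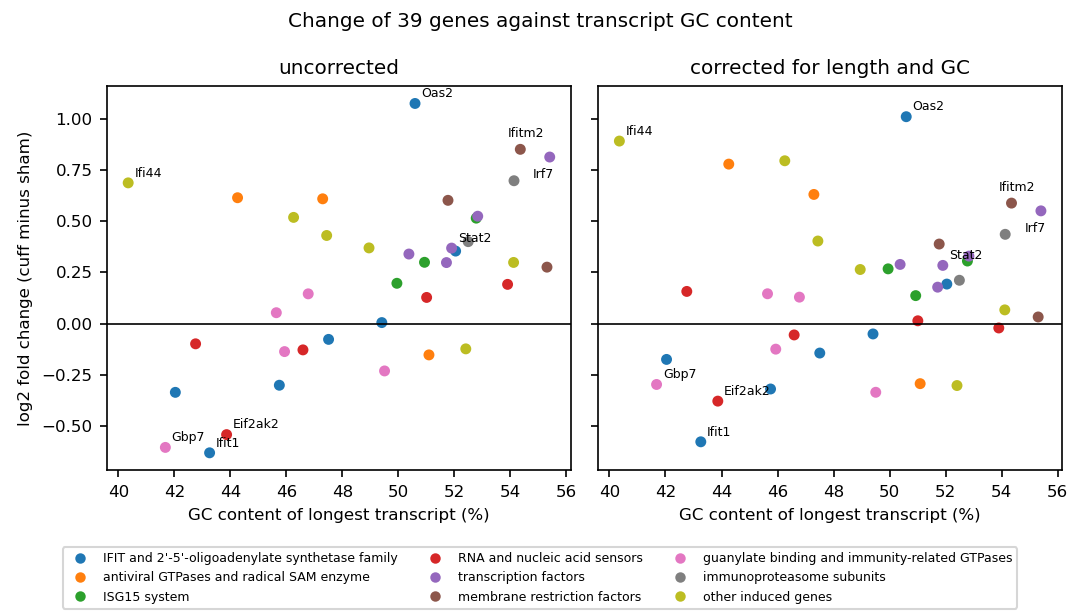
Log2 fold change (y axis, titled cuff minus titled sham) against the GC content of the longest transcript (x axis, percent) for the 39 genes, without (left) and with (right) the correction of each library for length and GC, coloured by role. Correlation across genes is 0.50 on the left and 0.15 on the right, where a fitted trend with GC has been taken out.

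Markers of cells that respond to interferons or could enter a dissected cord were measured in the same libraries. Of 8 endothelial genes 7 rose and none fell, where 1.15% of all genes tested were called higher and 2.96% lower. Their summed level was 145 and 158 CPM in the libraries titled cuff and 102 CPM in both titled sham. Of 8 neutrophil and bone marrow genes 1 rose (Mpo), and the sum was 194 and 460 CPM against 57.7 and 122 CPM. All 8 had both libraries titled cuff above both titled sham, as had 28.2% of all genes tested. Of 6 monocyte and border macrophage genes 1 rose (Ly6c2), with sums of 19.2 and 30.8 CPM against 13.1 and 22.5 CPM. No gene of these 3 lists was at 0 in all libraries. Their part in the interferon-stimulated genes was not tested.

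Lymphocyte markers were sparse. Of 8 genes 4 could be tested and 0 were called, with sums of 3.22 and 10.1 CPM against 2.54 and 4.40 CPM, and Cd8a was at 0 in both first libraries. Of 8 leptomeningeal genes 0 were called, with sums of 308 and 592 CPM against 194 and 332 CPM, so that the second library was the higher one in each group. Of 8 skeletal muscle genes 0 were called, with sums of 169 and 591 CPM against 111 and 78.7 CPM. All 8 had both libraries titled cuff above both titled sham, as had 28.2% of all genes tested. Of 8 microglial genes 0 were called, with a negative median log2 fold change of -0.25, and they summed to 278 and 234 CPM against 309 and 290 CPM. Of 6 astrocyte genes 1 fell (Aqp4), with sums of 4393 and 3677 CPM against 5325 and 5220 CPM. Of 6 genes listed for plasmacytoid dendritic cells, potent sources of interferon, 4 could be tested and 0 were called. The list shares Bst2 with the 39 and Siglech with microglia, Ccr9 had 3 to 6 counts per library, and Klk1 was at 0 in 3 libraries. Of 6 Schwann cell genes 1 rose (Sox10, which oligodendrocytes also express) and 1 fell (Cdh19), and of 6 sensory ganglion genes 3 could be tested and 0 were called.

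**Figure D5:**
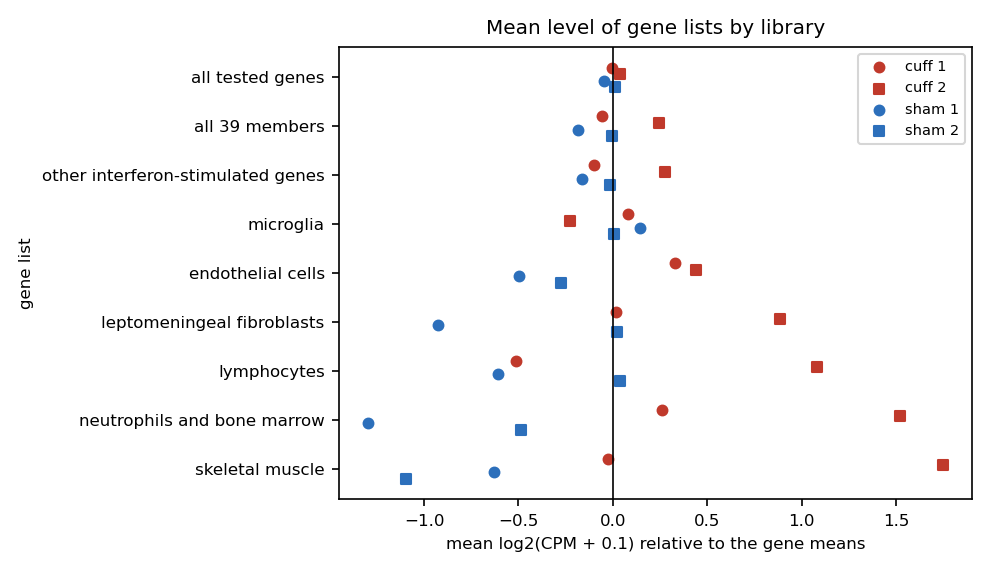
Mean of log2(CPM + 0.1), with the average of every gene taken off (x axis), for gene lists (y axis) in each library (red, titled cuff; blue, titled sham; circles, replicate 1; squares, replicate 2). The 39 genes and the second list of interferon-stimulated genes are highest in the second library titled cuff, as are the endothelial, leptomeningeal, lymphocyte, neutrophil and muscle lists, while the microglial list is lowest there.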

How the data were processed

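The deposited files held raw counts per Entrez gene, 1 file per library, whole numbers that were not normalized. Per the submitters' processing notes, Trimmomatic 0.30, HISAT2 2.0.1, featureCounts and build mm10 were used. For annotation and strand, the setting was not given in the sources used here. In 1 case the authors' file joined identifier and count by a backslash and a letter, a format of its own (unit: other), and was split there. Of 27179 identifiers, 25275 matched RefSeq symbols and 18 more GENCODE M21. Tests used R 4.3.3, edgeR 4.0.16 (filterByExpr, TMM scaling, robust quasi-likelihood F test, two-sided), limma 3.58.1 and DESeq2 1.42.0. CPM divides by effective (TMM) library sizes over 16918 genes, and each standard error is the log2 fold change over the root of its F. Intervals use the degrees of freedom of that test. No library was a copy of another (chi-square over its degrees of freedom, 24.2 to 69.1). The steps were checked on simulated counts. The values of 1 gene of a pathway list are not reported here.

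The members and lists were chosen with earlier results of these data known. Values in full were set for any member that passed and for the 2 most abundant members of each role, and for pathway lists for called genes (at most 4) and the 2 most abundant. Ifit1, Oas2, Irf1, Irf7, Irf8, Parp14 and other genes with values were added after theirs were seen. Alternatives were other scalings, filters and tests, each library left out, the replicate number as a block, and a local regression of each library on transcript length and GC, used as offsets.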

Additional observations from a re-analysis of the deposited data

How the results depend on the processing

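No member passed in 12 of 14 alternatives. The exceptions were the fit without the first library titled cuff (3 higher) and the replicate block (1 higher, Ifitm2, 0.83, adjusted p = 0.0406). The titles number the libraries within groups, but nothing says that a number marks a shared batch. The deviations of same-numbered libraries correlated at 0.12, and 2 pairs are too few to tell whether a batch was shared. The block, alone, moved the genes called lower from 501 to 309 of all tested. Over all genes, 195 were called higher and 501 lower. The number higher was 299 with upper quartile scaling, 341 with the likelihood ratio test, 443 with no filter, 34 with limma-voom and 79 with the length and GC correction. The number lower was 814 with DESeq2, 849 with no filter, 113 with limma-voom and 153 with the correction. The cause was not tested. With single libraries left out, the number higher ran from 0 to 714 and the number lower from 0 to 1214. The members called higher ran from 0 to 3, those called lower stayed at 0, and the median ran from -0.023 to 0.37. Signs held for 24 of the 39 members in all 14 alternatives. Oasl2 turned to -0.0105 with median-ratio scaling, -0.0105 with DESeq2, -0.050 with the correction and -0.023 with the correction and block. Under the last pair Ifih1 turned to 0.16 and 0.14, Dhx58 to -0.021 and -0.034, Jak2 to 0.053 and 0.054, and Ly6e to -0.022 and -0.021. Adar turned to -0.0047 with median-ratio scaling and DESeq2, -0.025 with the correction and -0.023 with the correction and block. Pias1 lost its call with limma-voom (-0.63) and both corrected fits (-0.34 and -0.34). With single libraries left out, fold changes that turned ran from -0.33 to 0.40 for Oasl2, -0.14 to 1.10 for Rsad2, -0.26 to 0.97 for Usp18, -0.22 to 0.47 for Trim25, -0.53 to 0.20 for Ifih1, -0.0076 to 0.32 for Dhx58, -0.36 to 0.84 for Zbp1, -0.00025 to 0.98 for Ifitm3, -0.023 to 0.27 for Gbp2, -0.30 to 0.024 for Gbp3, -0.10 to 0.14 for Irgm1, -0.13 to 1.17 for Psmb9, -0.31 to 0.066 for Ifi27, -0.094 to 0.56 for Ifi35, -0.11 to 0.68 for Rtp4, -0.026 to 0.16 for Stat3, -0.27 to 0.013 for Tbk1 and -0.18 to 0.20 for Adar. In these fits a lone library is assumed to vary like the other group. Low counts limit Mx1, Zbp1, Oas1a, Oas2 and Ifi44, whose mean was under 1 CPM.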
